A study of Mus musculus with 30 samples.

Results

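The genes described here are 10 oxidising enzymes of mouse liver that act on aldehydes, on nitrogen and sulfur compounds, and on purines: Aox1, Aox3, Fmo1, Fmo5, Aldh1a1, Aldh1a7, Aldh2, Aldh3a2, Xdh, and Uox. They were taken by name from the 55335 genes of the count table, all 10 were counted in all 30 libraries, and all 10 passed the filter on low counts in every comparison. RNA-seq was performed on whole livers of male mice on an albino C57BL/6J background, 7–10 weeks old, taken 24 hours after 1 oral dose of CDDO-Me (bardoxolone methyl) at 30 µmol/kg or of the vehicle alone. Wild-type mice, homozygous Keap1 C151S knock-in mice, and homozygous Nrf2-knockout mice were each given both treatments, which made 6 groups of 5 liver libraries. The study describes them as biological replicates. Wild-type mice came from a commercial breeder and both mutants from lines made in another laboratory, so that genotype and colony cannot be told apart. The alleles are carried in every cell of the animal, and the labels do not link libraries of different groups by litter or day.

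CDDO-Me is an electrophile, and KEAP1 is the protein that marks the transcription factor NRF2 for breakdown in unstressed cells. The cysteine of KEAP1 that the C151S allele changes is a sensor that reacts with electrophiles of this kind, after which NRF2 accumulates and drives genes through antioxidant response elements. In C151S mice it is replaced by serine, and in Nrf2-knockout mice the factor itself is missing. The question of the design is which liver transcripts CDDO-Me changes through that cysteine and through NRF2.

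Aldehyde oxidases (AOX) and xanthine dehydrogenase (XDH) are related molybdenum- and flavin-containing enzymes. The oxidases turn aldehydes and nitrogen heterocycles, many drugs among them, into acids and lactams, and XDH turns hypoxanthine to xanthine and then to uric acid. Urate oxidase (UOX) takes uric acid onward toward allantoin in mice, a step that humans have lost. Flavin-containing monooxygenases (FMO) add oxygen to the nitrogen or sulfur of drugs and metabolites. Aldehyde dehydrogenases (ALDH) oxidise aldehydes with NAD(P)+: ALDH1A1 makes retinoic acid from retinaldehyde, ALDH2 clears acetaldehyde in mitochondria, and ALDH3A2 oxidises fatty aldehydes.

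In the GRCm38 assembly, the genes lie on 6 chromosomes, and each is protein coding. Aox1 (chr1:58029931-58106413) and Aox3 (chr1:58113130-58200698) follow each other on the plus strand of chromosome 1, where Fmo1 (chr1:162829561-162866610, minus strand) also lies. Fmo5 (chr3:97628804-97655282) and Uox (chr3:146570426-146632305) are on the plus strand of chromosome 3. Aldh2 (chr5:121566027-121593824), Aldh3a2 (chr11:61223417-61267464), and Xdh (chr17:73883895-73950196) are on the minus strands of theirs. Aldh1a1 (chr19:20492715-20643465, plus strand) and Aldh1a7 (chr19:20692953-20727562, minus strand) are neighbours on chromosome 19 that face each other.

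The promoters of both neighbouring pairs are shown, because members of each pair moved together in the Nrf2-knockout liver. Each window, taken from RefSeq on GRCm38.p6, runs from 250 bases before to 50 bases after a listed start site and is given 5′ to 3′ on the gene's own strand. Capitals mark matches, on either strand, to TGANNNNGC, the loose core of an antioxidant response element. For Aldh1a1 the window is at chr19:20601718-20602017, at the start of the shorter of its annotated protein-coding transcripts, and the windows of Aldh1a7 (chr19:20727507-20727806), Aox1 (chr1:58029719-58030018), and Aox3 (chr1:58112886-58113185) follow.
Aldh1a1: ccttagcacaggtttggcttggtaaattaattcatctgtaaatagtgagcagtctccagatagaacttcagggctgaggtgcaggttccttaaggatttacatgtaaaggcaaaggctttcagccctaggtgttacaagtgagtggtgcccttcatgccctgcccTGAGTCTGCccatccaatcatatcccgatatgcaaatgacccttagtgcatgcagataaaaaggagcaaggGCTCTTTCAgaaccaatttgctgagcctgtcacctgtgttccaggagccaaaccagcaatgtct
Aldh1a7: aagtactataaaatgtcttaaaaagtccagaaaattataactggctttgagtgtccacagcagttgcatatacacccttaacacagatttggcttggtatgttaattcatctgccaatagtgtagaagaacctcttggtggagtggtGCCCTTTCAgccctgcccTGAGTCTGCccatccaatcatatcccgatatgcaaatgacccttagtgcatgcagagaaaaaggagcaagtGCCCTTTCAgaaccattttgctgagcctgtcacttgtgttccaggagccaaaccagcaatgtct
Aox1: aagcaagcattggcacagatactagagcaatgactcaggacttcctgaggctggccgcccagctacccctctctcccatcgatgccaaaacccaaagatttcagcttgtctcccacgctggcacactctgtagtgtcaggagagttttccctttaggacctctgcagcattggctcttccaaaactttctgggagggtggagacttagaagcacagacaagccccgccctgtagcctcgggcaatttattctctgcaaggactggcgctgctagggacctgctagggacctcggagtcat
Aox3: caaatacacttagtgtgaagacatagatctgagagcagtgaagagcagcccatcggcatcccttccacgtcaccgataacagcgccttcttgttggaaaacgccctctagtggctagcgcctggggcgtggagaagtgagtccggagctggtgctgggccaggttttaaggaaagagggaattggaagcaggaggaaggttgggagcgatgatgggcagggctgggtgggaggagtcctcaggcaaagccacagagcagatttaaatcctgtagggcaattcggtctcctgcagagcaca
The Aldh1a1 and Aldh1a7 windows hold the same base at 177 of 300 positions without gaps, and TGANNNNGC begins at the same places in both, at -85 on the plus strand and at -14 on the minus strand, counted from the start site. Aldh1a7 has 1 more match at -103. The other listed window of Aldh1a1, not shown, has its matches at -198 and -136, both on the minus strand. Neither aldehyde oxidase window holds the motif.

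RefSeq listed 8 windows for 7 of the 10 genes, and none for Fmo1, Aldh2, and Xdh. TGANNNNGC was found in 5 of these 8 windows, those of Uox, Aldh3a2, Aldh1a7, and both starts of Aldh1a1, and in 41.3% of all 32851 windows. The stricter form TGACNNNGC, every match of which is also a match to the loose one, was found in 0 of the 8 and in 12.4% of all. TTATGNAA, a motif of clock-controlled D-boxes, was found in 0 of the 8 and in 3.38% of all. CACGTG, the E-box bound by the ARNTL protein, was found in 1 of the 8, that of Aldh3a2, and in 7.15% of all. These are descriptions of letters in a 300-base window, and no binding was measured.

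The transcripts of Aldh1a1 and Aldh1a7 are alike enough to share reads. Over 2050 aligned bases they were 89.6% identical, and 7.53% of the 2004 windows of 50 bases in the Aldh1a1 transcript occurred unchanged in that of Aldh1a7. Reads were 50 bases at each end, and reads that matched more than 1 place were left out of the counts, which leaves both genes counted in part. Aox1 and Aox3 were 63.9% identical and shared 0 such windows, as did each of them with Xdh (58.3% and 57.6%) and Fmo1 with Fmo5 (56.3%).

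Between 23667068 and 42073169 counts fell on genes in each library, and the lowest count of any of the 10 genes in any library was 578 (Aox1, Nrf2-knockout). Levels are given as CPM (counts scaled to a fixed library total) after scaling of the libraries by the trimmed mean of M values, in the order of the replicate numbers, and differences as log2 with a standard error (SE). The hepatocyte marker Alb was counted at least 1428446 times in every library, and the kidney marker Slc12a1 and the pancreas markers Prss1 and Ins2 at 0 in all. Of the 9 markers listed for kidney or gut and for fat or pancreas, 4 more had at most 19 counts in any library, while Fabp2 had 880 to 2092 and Cela1 281 to 1627. Nfe2l2, the gene of NRF2, was -0.89 ± 0.10 (adjusted p = 0.00039) in vehicle-treated Nrf2-knockout against wild-type liver. Counts of a whole gene include exons that a targeted allele keeps, and the C151S change is not visible in them. Nqo1, a standard NRF2 target, rose with CDDO-Me in wild-type liver by 3.16 ± 0.28 (adjusted p = 3.9e-05).

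Features of the libraries, which the labels do not give, moved with some of these genes. In 2 libraries, C151S CDDO-Me 1 and Nrf2-knockout CDDO-Me 2, the acute-phase transcript Saa1 stood at 19469 and 6809 CPM, against 133 to 1468 and 51.6 to 667 CPM in the rest of their groups. In wild-type liver Saa1 was 927 to 8994 CPM after CDDO-Me and 100 to 1429 CPM after vehicle. The clock gene Arntl split the mutants: 5 of 10 C151S and 6 of 10 Nrf2-knockout libraries had 0.39 to 1.81 CPM, and the other mutants and all wild-type libraries 5.69 to 27.7 CPM. The low-Arntl libraries were 2 vehicle and 3 CDDO-Me in C151S, and 3 and 3 in Nrf2-knockout. C151S CDDO-Me 1 and Nrf2-knockout CDDO-Me 2 were not among them. Comparisons between mutant and wild-type therefore set libraries of both kinds against libraries of 1 kind. The part of these features in the results below was not tested beyond the values given with them, and in whole liver, fewer cells of a type and less RNA per cell cannot be told apart.

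**Figure D1:**
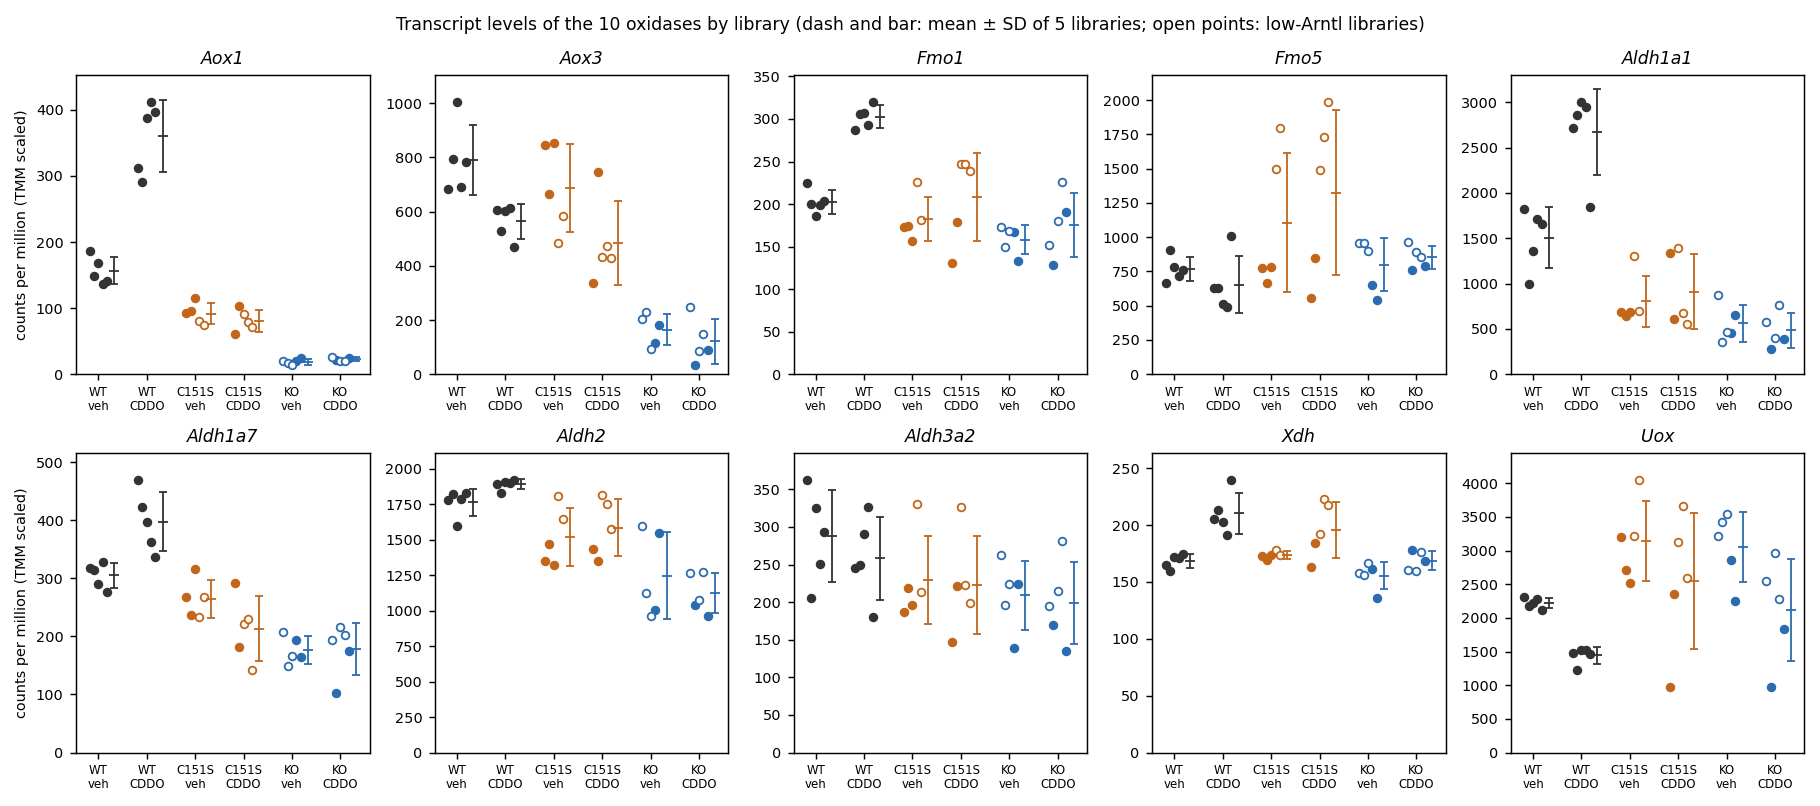
CPM of each of the 10 genes (vertical axes, from 0) in the 30 libraries, by genotype and treatment (horizontal axis); points are libraries, open points are low-Arntl libraries, and the dash with its bar is the mean ± SD of 5 libraries. Aox1 was at 13.4 to 26.8 CPM in all Nrf2-knockout livers and at 292 to 412 CPM in wild-type livers after CDDO-Me.

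To compare levels between genes, TPM was used, a count scale corrected for library size and for the length of all annotated exons of a gene. That length can exceed a transcript. It was 4937 bases for Aldh1a1 and 2066 for Aldh1a7, whose compared transcripts had 2053 and 2066 bases. The order and shares below depend on it. In wild-type liver after vehicle, Uox stood highest at 1053 ± 78.9 TPM (SD, n = 5), and its lowest library was above the highest of the next gene. Aldh2 (816 ± 44.9) and Aldh1a1 (728 ± 171) followed and overlapped each other. Then came Aldh1a7 (351 ± 25.6), Fmo5 (320 ± 37.0), and Aox3 (269 ± 58.8), each overlapping its neighbour in the order. Aldh3a2 (122 ± 28.3) and Fmo1 (76.2 ± 4.2) overlapped, and so did Xdh (43.6 ± 4.4) and Aox1 (42.8 ± 5.8) at the foot of the order. Uox, Aldh2, and Aldh1a1 made up 27.6%, 21.4%, and 19.0% of the summed TPM of the 10 genes, and Aox1 1.12%. The summed level was 3821 ± 311 TPM in wild-type liver after vehicle and 4163 ± 239 after CDDO-Me, 4062 ± 376 and 3674 ± 780 in C151S, and 3462 ± 330 and 2794 ± 548 in Nrf2-knockout.

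A gene was counted as changed between groups when edgeR's quasi-likelihood test gave a Benjamini-Hochberg adjusted p under 0.05 over all genes tested and the log2 difference was at least 0.5. CDDO-Me changed 4 of the 10 in wild-type liver, where 2.75% of all 13697 genes tested were changed: Aox1, Aldh1a1, and Fmo1 rose (1.66% of all genes did) and Uox fell (1.1%). In C151S liver 0 of the 10 were changed, with 0.092% of all genes, and 1 of the 10, Aox3, had an unadjusted p under 0.05. In Nrf2-knockout liver 0 of the 10 were changed, with 0 of all 14474 genes, 1136 of which had an unadjusted p under 0.05 but none of the 10. DESeq2 likewise called 0 of the 10 in both mutants. The median log2 difference of the 10 was 0.20 in wild-type, 0.01 in C151S, and -0.04 in Nrf2-knockout liver, against medians over all genes of -0.01 in each.

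**Figure D2:**
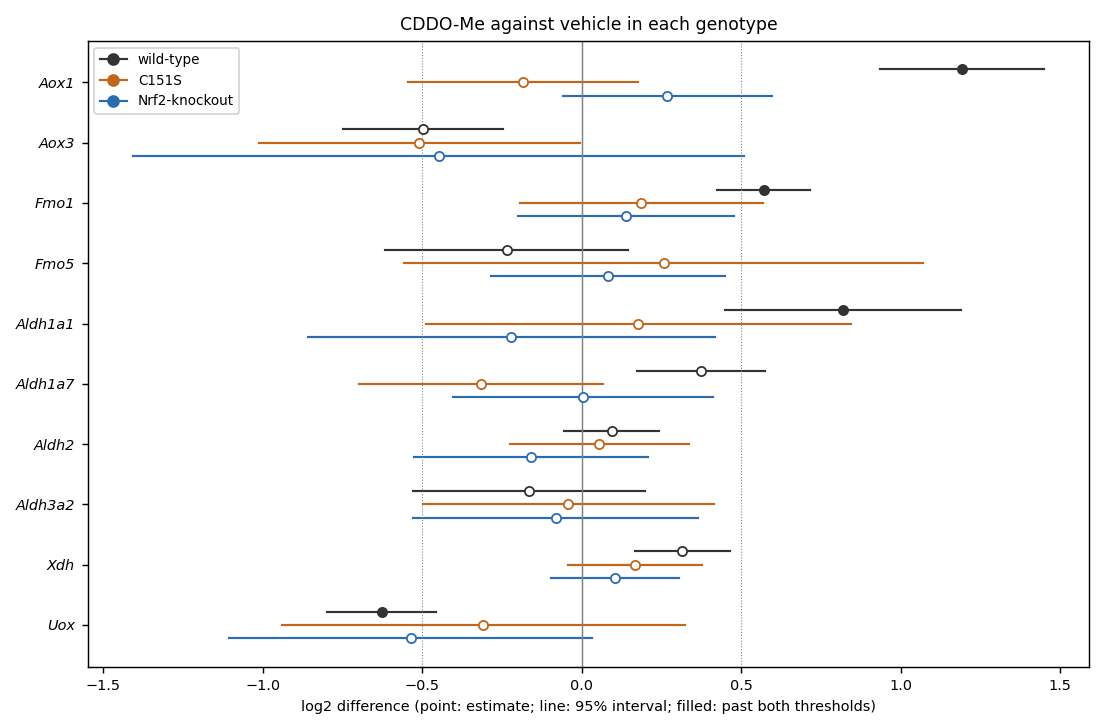
Log2 difference between CDDO-Me and vehicle (horizontal axis) of each gene (vertical axis) in the 3 genotypes, 5 libraries a group; points are estimates, lines 95% intervals, filled points passed both thresholds, and dotted lines mark 0.5 either way. Filled points occur only for wild-type: Aox1, Fmo1, and Aldh1a1 to the right of 0 and Uox to the left.

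Aox1 was the gene that differed in most comparisons, 7 of 9. In wild-type liver it stood at 187, 149, 168, 137, and 142 CPM after vehicle and 312, 292, 388, 412, and 396 CPM after CDDO-Me. In C151S liver it was at 92.6, 95.4, 115, 79.8, and 74.9 CPM after vehicle and 60.4, 103, 91.8, 79.7, and 70.7 CPM after CDDO-Me. In Nrf2-knockout liver it was at 19.7, 16.4, 13.4, 20.1, and 24.1 CPM after vehicle and 26.8, 21.4, 20.7, 20.1, and 24.5 CPM after CDDO-Me. Every wild-type CDDO-Me library was above every wild-type vehicle library, and all 10 Nrf2-knockout libraries were below all 10 C151S libraries. The wild-type rise was 2.28-fold, a log2 difference of 1.19 ± 0.12 (adjusted p = 0.00011). The difference was -0.18 ± 0.16 (adjusted p = 0.61) in C151S and 0.27 ± 0.15 (adjusted p = 0.69) in Nrf2-knockout liver, with 95% intervals of -0.54 to 0.18 and -0.06 to 0.59.

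The Aox1 response in wild-type exceeded that in C151S by 1.38 ± 0.21 (adjusted p = 0.00058) on the log2 scale, in 1 model of all 30 libraries. Of the 10 genes Aox1 alone passed in that difference, as did 0.48% of all genes in either direction and 0.386% in the direction of Aox1. Against the Nrf2-knockout response the excess was 0.92 ± 0.22 (adjusted p = 0.061), which missed the threshold, and 0 of the 10 passed (0.266% of all genes), with an unadjusted p under 0.05 in 3 of the 10. Of 30 fits without 1 library, Aox1 passed in 6, with adjusted p from 0.024 to 0.048, and elsewhere adjusted p reached 0.16. Those 6 each left out 1 of C151S vehicle 3, C151S CDDO-Me 1 and 2, Nrf2-knockout vehicle 3, wild-type CDDO-Me 2, and wild-type vehicle 1. Of 6 other settings it passed in 2, with the Arntl side as a covariate (adjusted p = 0.034) and in DESeq2 (adjusted p = 0.011). Without C151S CDDO-Me 1 and Nrf2-knockout CDDO-Me 2 it did not pass (0.90, adjusted p = 0.077). The C151S and Nrf2-knockout responses differed in 0 of the 10 (0.0133% of all genes, unadjusted p under 0.05 in 1 of the 10, Aox1). DESeq2 also called 0 of the 10 there.

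Aox1 also differed between genotypes without treatment. Vehicle-treated C151S liver had 0.592 times the wild-type level, a difference of -0.76 ± 0.13 (adjusted p = 0.0073). Vehicle-treated Nrf2-knockout liver had 0.121 times the wild-type level (-3.05 ± 0.16, adjusted p = 1.3e-06) and differed from C151S by -2.29 ± 0.17 (adjusted p = 0.00015). After CDDO-Me the differences from wild-type were -2.13 ± 0.16 (adjusted p = 2e-05) in C151S and -3.97 ± 0.14 (adjusted p = 9.4e-09) in Nrf2-knockout liver, and Nrf2-knockout differed from C151S by -1.83 ± 0.15 (adjusted p = 0.00035). The groups did not overlap in any of these 6 comparisons, which share groups with each other.

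Aox3, the chief aldehyde oxidase of mouse liver, was lower in Nrf2-knockout liver but did not rise with CDDO-Me. In wild-type liver it was at 683, 794, 1006, 692, and 783 CPM after vehicle and 607, 527, 603, 613, and 469 CPM after CDDO-Me. In C151S liver the values were 844, 665, 854, 483, and 583 CPM after vehicle and 337, 745, 431, 475, and 429 CPM after CDDO-Me. In Nrf2-knockout liver they were 204, 228, 94.0, 115, and 183 CPM after vehicle and 249, 32.3, 86.9, 147, and 90.2 CPM after CDDO-Me. All Nrf2-knockout libraries lay below all C151S and wild-type libraries, while C151S and wild-type overlapped under both treatments. Aox3 differed from wild-type in Nrf2-knockout liver by -2.25 ± 0.23 (adjusted p = 0.00024) after vehicle and by -2.20 ± 0.41 (adjusted p = 0.0047) after CDDO-Me. Between Nrf2-knockout and C151S liver the difference was -2.06 ± 0.26 (adjusted p = 0.0044) after vehicle, and after CDDO-Me it was -2.0 ± 0.44 (adjusted p = 0.18), which missed the threshold in this fit and passed in the fit of all 30 libraries and in DESeq2 (adjusted p = 0.0004).

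In all 3 genotypes the estimate for Aox3 after CDDO-Me was below 0, and none was called. It was -0.50 ± 0.12 (adjusted p = 0.030) in wild-type, where the groups did not overlap and the adjusted p passed but the size stayed just under 0.5. It was called without wild-type vehicle 1 or 4 or wild-type CDDO-Me 1 or 4, at up to -0.55. It was -0.51 ± 0.23 (adjusted p = 0.36) in C151S and -0.45 ± 0.44 (adjusted p = 0.82) in Nrf2-knockout liver. C151S CDDO-Me 1 and Nrf2-knockout CDDO-Me 2, the mutant libraries with the most Saa1, held the lowest Aox3 of their groups, 337 and 32.3 CPM. Without them the differences were -0.41 (adjusted p = 0.51) and -0.20 (adjusted p = 0.91) in the mutants.

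Among the flavin monooxygenases, Fmo1 rose with CDDO-Me in wild-type liver alone among the 3 comparisons, and the test of the difference between genotypes did not pass. In wild-type liver Fmo1 was at 225, 201, 186, 199, and 203 CPM after vehicle and 287, 306, 308, 293, and 320 CPM after CDDO-Me. In C151S liver it was at 173, 174, 157, 227, and 181 CPM after vehicle and 130, 179, 247, 247, and 238 CPM after CDDO-Me. In Nrf2-knockout liver it was at 173, 150, 168, 167, and 133 CPM after vehicle and 152, 128, 180, 226, and 190 CPM after CDDO-Me. The 5 low-Arntl C151S libraries had 181 to 247 CPM of Fmo1 and the 5 others 130 to 179 CPM, without overlap. The wild-type groups did not overlap, and the rise was 1.48-fold (0.57 ± 0.07, adjusted p = 0.0004). The wild-type response exceeded the C151S response by 0.39 ± 0.20 (adjusted p = 0.65) and the Nrf2-knockout response by 0.43 ± 0.21 (adjusted p = 0.77). After CDDO-Me, Fmo1 was lower in Nrf2-knockout than in wild-type liver, with a difference of -0.77 ± 0.14 (adjusted p = 0.0047). In C151S it was -0.52 ± 0.16 (adjusted p = 0.070), without overlap of the groups, which was not called here but was in the fit of all 30 libraries (adjusted p = 0.017), in DESeq2 (adjusted p = 0.025), and with high-Arntl libraries alone (-0.96, adjusted p = 0.014). The last left 2 C151S libraries, CDDO-Me 1 with its high Saa1 and CDDO-Me 2. After vehicle the Nrf2-knockout difference was -0.34 ± 0.09 (adjusted p = 0.029), which passed the adjusted p but not the size.

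Fmo5, a monooxygenase that can insert oxygen next to ketones, was called in 0 of the 9 comparisons. Its values in C151S liver were 778, 667, 784, 1500, and 1794 CPM after vehicle and 557, 848, 1492, 1733, and 1988 CPM after CDDO-Me. In Nrf2-knockout liver they were 957, 954, 897, 649, and 544 CPM after vehicle and 966, 760, 894, 854, and 786 CPM after CDDO-Me. In wild-type liver they were 664, 905, 782, 719, and 761 CPM after vehicle and 630, 630, 516, 488, and 1009 CPM after CDDO-Me. In both mutants the low-Arntl libraries had more Fmo5 than the others, without overlap. The 5 low-Arntl C151S libraries had 1492 to 1988 CPM and the 5 others 557 to 848 CPM. The 6 low-Arntl Nrf2-knockout libraries had 854 to 966 CPM and the 4 others 544 to 786 CPM. The C151S estimate against wild-type was 0.53 ± 0.25 (adjusted p = 0.20) after vehicle and 1.03 ± 0.32 (adjusted p = 0.079) after CDDO-Me. The second was called without C151S CDDO-Me 1 (1.22, adjusted p = 0.014), without wild-type CDDO-Me 5 (1.24, adjusted p = 0.044), and in DESeq2 (adjusted p = 0.016). Nrf2-knockout against wild-type after CDDO-Me was called without wild-type CDDO-Me 5 (0.61, adjusted p = 0.012). With high-Arntl libraries alone the C151S estimates were -0.02 (adjusted p = 0.92) and 0.12 (adjusted p = 0.88). The second rested on 2 C151S libraries, CDDO-Me 1 and 2, of which the first had Saa1 at 19469 CPM and Fmo5 at 557 CPM. There the Arntl side and Saa1 cannot be told apart.

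**Figure D3:**
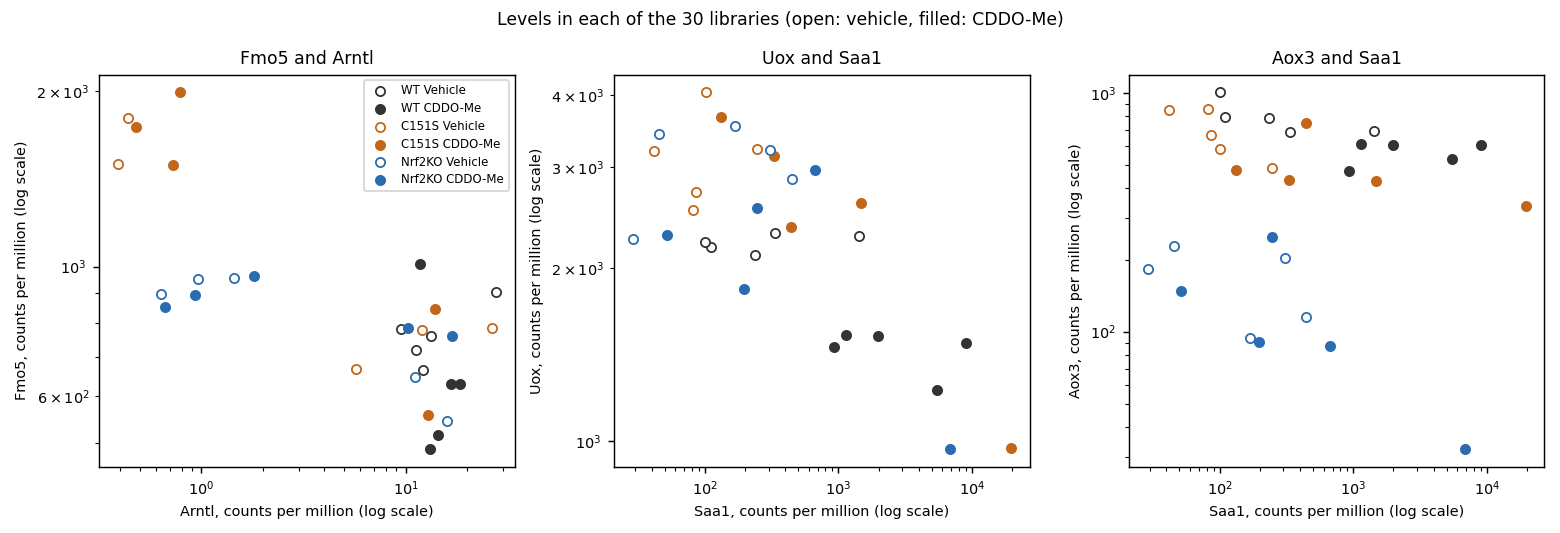
Fmo5 against Arntl (left), Uox against Saa1 (middle), and Aox3 against Saa1 (right), all in CPM on log axes, for the 30 libraries, colored by genotype with vehicle open and CDDO-Me filled. The C151S libraries with Arntl below 1 CPM have Fmo5 at 1492 CPM or above, and the mutant libraries with the most Saa1 have Uox at 973 and 969 CPM.

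Of the 4 aldehyde dehydrogenases, Aldh1a1 moved most. In wild-type liver it was at 1822, 992, 1356, 1711, and 1655 CPM after vehicle and 2712, 2863, 3006, 2947, and 1843 CPM after CDDO-Me. In C151S liver it was at 690, 644, 688, 1302, and 700 CPM after vehicle and 1336, 607, 1395, 672, and 551 CPM after CDDO-Me. In Nrf2-knockout liver it was at 878, 359, 472, 452, and 651 CPM after vehicle and 575, 282, 405, 766, and 392 CPM after CDDO-Me. The wild-type groups did not overlap, though by a narrow margin, 1822 against 1843 CPM, and 3 C151S libraries stood at 1302 to 1395 CPM while the other 7 were at 551 to 700. The wild-type rise was 1.77-fold (0.82 ± 0.17, adjusted p = 0.017). The call was lost without vehicle replicate 3 (adjusted p = 0.053) and in the fit of all 30 libraries (adjusted p = 0.24). The responses in C151S (0.18 ± 0.30, adjusted p = 0.80) and Nrf2-knockout liver (-0.22 ± 0.29, adjusted p = 0.87) were not called. The high-Saa1 library C151S CDDO-Me 1 held 1336 CPM, and without it the C151S response was -0.01 (adjusted p = 0.99). The wild-type response differed from those of C151S and Nrf2-knockout by 0.65 ± 0.41 (adjusted p = 0.73) and 1.04 ± 0.41 (adjusted p = 0.61), neither of which passed.

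Aldh1a1 was lower in both mutants than in wild-type under both treatments. In C151S liver the difference was -0.89 ± 0.21 (adjusted p = 0.026) after vehicle and -1.53 ± 0.28 (adjusted p = 0.0097) after CDDO-Me. The first of these rested on the full set of libraries: 6 of the 10 libraries each ended the call when left out, C151S vehicle 1, 2, and 3 and wild-type vehicle 1, 4, and 5, with adjusted p up to 0.073. In Nrf2-knockout liver it was -1.41 ± 0.23 (adjusted p = 0.0034) after vehicle and -2.45 ± 0.26 (adjusted p = 9.6e-05) after CDDO-Me, where the groups did not overlap. Between the mutants the differences, -0.52 ± 0.25 (adjusted p = 0.48) after vehicle and -0.91 ± 0.34 (adjusted p = 0.51) after CDDO-Me, were not called.

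Aldh1a7, its rodent neighbour, showed smaller differences. In wild-type liver it was at 317, 315, 291, 328, and 276 CPM after vehicle and 469, 422, 398, 362, and 338 CPM after CDDO-Me. In C151S liver it was at 267, 237, 316, 234, and 268 CPM after vehicle and 292, 182, 222, 229, and 143 CPM after CDDO-Me. In Nrf2-knockout liver it was at 208, 149, 166, 193, and 165 CPM after vehicle and 193, 103, 215, 203, and 174 CPM after CDDO-Me. Every wild-type CDDO-Me library was above every wild-type vehicle library, but the log2 difference, 0.37 ± 0.09 (adjusted p = 0.041), was under 0.5. In wild-type the response was larger than in C151S by 0.69 ± 0.23 (adjusted p = 0.35). Without C151S CDDO-Me 1 and Nrf2-knockout CDDO-Me 2 this was 0.83 (adjusted p = 0.024), which passed. Nrf2-knockout liver was lower than wild-type, with differences of -0.77 ± 0.10 (adjusted p = 0.00092) after vehicle and -1.14 ± 0.18 (adjusted p = 0.0020) after CDDO-Me. C151S liver was lower after CDDO-Me, with a difference of -0.88 ± 0.18 (adjusted p = 0.014). The C151S difference was not called with high-Arntl libraries alone (-0.74, adjusted p = 0.11), nor was that of Aldh1a1 (-1.45, adjusted p = 0.060), with 2 C151S libraries left in each. Reads that matched both neighbours were left out of the counts of both, and what this did to the differences was not tested.

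Aldh2 and Aldh3a2 were not called after CDDO-Me in any genotype. Aldh2 was at 1599 to 1827 CPM after vehicle and 1832 to 1920 CPM after CDDO-Me in wild-type liver, and at 963 to 1598 and 960 to 1272 CPM in Nrf2-knockout liver. After CDDO-Me it was lower in Nrf2-knockout than in wild-type liver, with a difference of -0.74 ± 0.11 (adjusted p = 0.0013) and no overlap of the groups, and after vehicle the difference was -0.49 ± 0.14 (adjusted p = 0.037), under the size threshold. That one was called without Nrf2-knockout vehicle 1 (-0.58, adjusted p = 0.014) or 5 (-0.58, adjusted p = 0.017), and in the fit of all 30 libraries. In C151S liver Aldh2 was at 1324 to 1809 CPM after vehicle and 1347 to 1813 CPM after CDDO-Me, with 1578 to 1813 CPM in the 5 low-Arntl libraries and 1324 to 1469 CPM in the 5 others, without overlap. Aldh3a2 ranged from 135 to 362 CPM over all 30 libraries, its groups overlapped in all 9 comparisons, and its largest difference was -0.44 ± 0.18 (adjusted p = 0.10).

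In the purine pair, Uox fell with CDDO-Me in wild-type liver and Xdh did not reach the size threshold. Uox was at 2306, 2174, 2225, 2279, and 2112 CPM after vehicle and 1482, 1229, 1526, 1529, and 1460 CPM after CDDO-Me in wild-type liver. In C151S liver it was at 3202, 2713, 2525, 3223, and 4047 CPM after vehicle and 973, 2358, 3131, 3666, and 2597 CPM after CDDO-Me. In Nrf2-knockout liver it was at 3210, 3421, 3543, 2863, and 2252 CPM after vehicle and 2546, 969, 2964, 2282, and 1837 CPM after CDDO-Me. The wild-type groups did not overlap, and the level after CDDO-Me was 0.648 times that after vehicle (-0.63 ± 0.08, adjusted p = 0.00064). In the fit of all 30 libraries, where all groups share 1 estimate of spread, it was not called (adjusted p = 0.34), and why was not tested. The estimates were -0.31 ± 0.29 (adjusted p = 0.62) in C151S and -0.54 ± 0.26 (adjusted p = 0.65) in Nrf2-knockout liver. The wild-type response differed from these by -0.31 ± 0.34 (adjusted p = 0.85) and -0.09 ± 0.34 (adjusted p = 0.99), so that no difference between genotypes was shown.

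In the mutants, Uox was lowest in the 2 libraries with the most Saa1, which had 973 and 969 CPM, each the lowest of its group. Without them the estimates were -0.11 (adjusted p = 0.81) in C151S and -0.35 (adjusted p = 0.69) in Nrf2-knockout liver. After vehicle Uox was higher in C151S than in wild-type liver by 0.51 ± 0.12 (adjusted p = 0.020), without overlap. That call ended without C151S vehicle 5, where the difference was 0.41, adjusted p = 0.026, without wild-type vehicle 4 (0.52, adjusted p = 0.051) or wild-type vehicle 5 (0.49, adjusted p = 0.060), and with high-Arntl libraries alone (0.37, adjusted p = 0.016). Nrf2-knockout liver differed from wild-type after vehicle by 0.48 ± 0.12 (adjusted p = 0.021), which passed the adjusted p but not the size, and was called without Nrf2-knockout vehicle 5 (0.57, adjusted p = 0.0034). After CDDO-Me the excess over wild-type was 0.83 ± 0.27 (adjusted p = 0.087) in C151S and 0.57 ± 0.24 (adjusted p = 0.14) in Nrf2-knockout liver, not called. Without C151S CDDO-Me 1 and Nrf2-knockout CDDO-Me 2 both passed, at 1.04 (adjusted p = 0.0015) and 0.76 (adjusted p = 0.0043). Wild-type CDDO-Me 1 and 2, with Saa1 at 8994 and 5472 CPM, stayed in that comparison. With all libraries kept, the C151S excess was called in the fit of all 30 libraries and in DESeq2. It was not called with high-Arntl libraries alone. In all, 3 of 7 other settings and 1 of 10 fits without 1 library called this excess. Over them its estimate went down to 0.22 and its adjusted p up to 0.75.

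Xdh had the smallest coefficient of variation of the 10 in each vehicle group, 3.5%, 1.8%, and 7.5% in wild-type, C151S, and Nrf2-knockout. It was at 160 to 174 CPM in wild-type, 170 to 178 CPM in C151S, and 136 to 167 CPM in Nrf2-knockout liver. After CDDO-Me it was at 191 to 240, 163 to 223, and 160 to 178 CPM. The wild-type groups did not overlap, and the log2 difference was 0.32 ± 0.07 (adjusted p = 0.021), under the size threshold. After CDDO-Me the Nrf2-knockout level differed from wild-type by -0.30 ± 0.09 (adjusted p = 0.043), also under it.

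**Figure D4:**
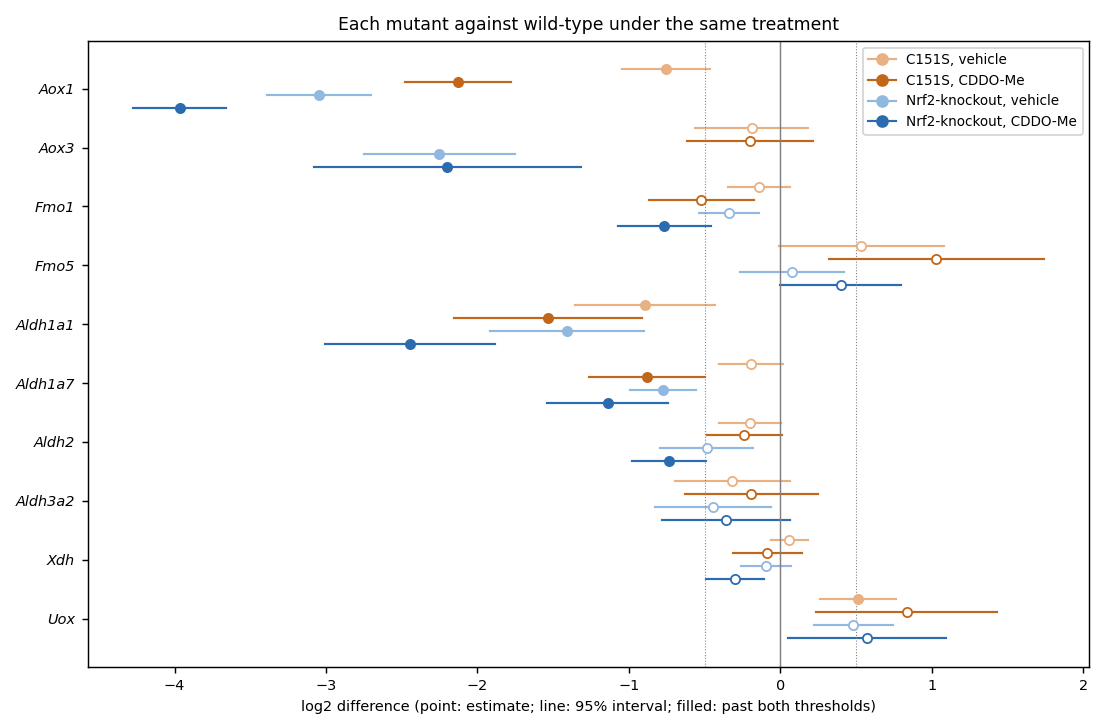
Log2 difference from wild-type (horizontal axis) of each gene (vertical axis) in C151S and Nrf2-knockout liver after vehicle or CDDO-Me, 5 libraries a group; points are estimates, lines 95% intervals, filled points passed both thresholds, and dotted lines mark 0.5 either way. Aox1 and Aldh1a1 are filled in all 4 comparisons, and the Nrf2-knockout points of Aox1 lie at -3.05 and -3.97.

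Set side by side, the mutants departed from wild-type in different numbers of these genes. After vehicle 3 of the 10 differed in C151S liver (4.84% of all genes), with Aox1 and Aldh1a1 lower (2.25% of all genes were) and Uox higher (2.59%). In Nrf2-knockout liver 4 differed (10.4%), all lower (4.13%): Aox1, Aox3, Aldh1a1, and Aldh1a7. After CDDO-Me 3 of the 10 were lower in C151S liver, Aox1, Aldh1a1, and Aldh1a7, where 2.8% of all genes were lower and 5% differed either way. In Nrf2-knockout liver 6 were lower (4.85% of all genes lower, 9.44% either way), which were Aox1, Aox3, Fmo1, Aldh1a1, Aldh1a7, and Aldh2. These comparisons share the wild-type libraries. Between the mutants, Nrf2-knockout liver was lower in 2 of the 10 after vehicle, Aox1 and Aox3 (0.307% of all genes lower, 0.349% either way), and in 1 after CDDO-Me, Aox1 (0.127% and 0.162%). The median difference of the 10 from wild-type was -0.19 and -0.22 in C151S and -0.46 and -0.75 in Nrf2-knockout liver after vehicle and CDDO-Me, against 0.01 to 0.03 over all genes. Fmo5, Aldh3a2, and Xdh were called in none of the 9 comparisons.

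Genes that work beside the 10 enzymes were read in the same fits. Mocos, the sulfurase that activates the molybdenum cofactor of aldehyde oxidase and XDH, was lower in both mutants than in wild-type. The differences were -0.75 ± 0.12 (adjusted p = 0.0038) after vehicle and -1.18 ± 0.16 (adjusted p = 0.0018) after CDDO-Me in C151S, and -1.03 ± 0.14 (adjusted p = 0.0011) and -1.34 ± 0.09 (adjusted p = 3.6e-06) in Nrf2-knockout liver. Mocs1, which starts the synthesis of that cofactor, was lower in Nrf2-knockout liver, with differences of -0.65 ± 0.13 (adjusted p = 0.0077) and -0.91 ± 0.08 (adjusted p = 2.9e-05) from wild-type, and of -0.58 ± 0.10 (adjusted p = 0.036) from C151S after CDDO-Me. Of the 6 genes of the cofactor and of sulfite oxidase, 0 changed with CDDO-Me in any genotype by edgeR or DESeq2, with unadjusted edgeR p under 0.05 in 2, 2, and 0 in wild-type, C151S, and Nrf2-knockout.

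Among 17 other aldehyde dehydrogenases, 13 or 14 were tested in each comparison. Aldh3b1 rose with CDDO-Me in wild-type liver (1.05 ± 0.14, adjusted p = 0.00084), as 1 of 13 tested, from 1.96 to 2.80 CPM after vehicle to 4.19 to 5.87 CPM. Its wild-type response exceeded that of Nrf2-knockout by 1.22 ± 0.23 (adjusted p = 0.0080). Against the C151S response 0 of the 14 tested passed, so that no difference was shown for Aldh3b1 there. After CDDO-Me 3 of the 13 were lower in Nrf2-knockout than in wild-type liver: Aldh3b1 (-1.11 ± 0.16, adjusted p = 0.00089), Aldh1l1 of the folate pathway (-0.92 ± 0.14, adjusted p = 0.0012), and Aldh5a1, which oxidises succinic semialdehyde (-0.68 ± 0.07, adjusted p = 4.9e-05). In C151S liver 2 were lower, Aldh3b1 (-1.12 ± 0.17, adjusted p = 0.0028) and Aldh1l1 (-0.59 ± 0.15, adjusted p = 0.038). Aldh1a3, another retinaldehyde dehydrogenase, was higher than wild-type after vehicle in C151S (1.31 ± 0.33, adjusted p = 0.034) and in Nrf2-knockout liver (1.46 ± 0.44, adjusted p = 0.041), and it was the 1 of the 13 that was higher in Nrf2-knockout liver after CDDO-Me (1.84 ± 0.42, adjusted p = 0.014). Its level was very low. After vehicle it was 0.22 to 0.58 CPM in wild-type (7 to 17 counts), 0.58 to 1.32 in C151S, and 0.54 to 2.13 in Nrf2-knockout liver. After CDDO-Me it was 0.20 to 0.65 CPM in wild-type (5 to 21 counts) and 0.64 to 2.08 in Nrf2-knockout liver.

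Of 7 other aldehyde oxidases and flavin monooxygenases, 2 passed the filter on low counts in the wild-type treatment comparison, and 1 of these, Fmo2, rose with CDDO-Me in wild-type liver by 0.66 ± 0.12 (adjusted p = 0.0075). The estimates of Fmo2 in C151S (1.17 ± 0.45, adjusted p = 0.35) and Nrf2-knockout (0.45 ± 0.28, adjusted p = 0.72) were not called, and its response was not shown to differ between wild-type and C151S (-0.50 ± 0.49, adjusted p = 0.83) or Nrf2-knockout (0.21 ± 0.49, adjusted p = 0.98). Of 16 genes of purine breakdown and salvage, 0 of the 13 or 14 tested changed with CDDO-Me in any genotype by edgeR, with unadjusted p under 0.05 in 4, 1, and 1 in wild-type, C151S, and Nrf2-knockout, and DESeq2 called 1, 0, and 0. Pnp, the purine nucleoside phosphorylase that feeds XDH, was lower than wild-type after vehicle in C151S (-0.56 ± 0.11, adjusted p = 0.012) and in Nrf2-knockout liver (-0.51 ± 0.10, adjusted p = 0.0061). Nt5e, which makes adenosine outside the cell, was lower in C151S than in wild-type liver after CDDO-Me (-1.09 ± 0.25, adjusted p = 0.026).

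Of 11 alcohol and retinol dehydrogenases and related genes, 0 changed with CDDO-Me in any genotype by edgeR or DESeq2, with unadjusted edgeR p under 0.05 in 4, 0, and 1. The mutants did differ from wild-type. After vehicle 1 was lower in C151S and 4 in Nrf2-knockout liver, and after CDDO-Me 2 and 5 were lower and 0 and 1 higher. Differences of Nrf2-knockout from wild-type liver were -0.72 ± 0.17 (adjusted p = 0.015) after vehicle and -1.11 ± 0.14 (adjusted p = 0.00043) after CDDO-Me for Adh4, an alcohol dehydrogenase that also takes retinol. They were -0.58 ± 0.08 (adjusted p = 0.0011) and -0.81 ± 0.10 (adjusted p = 0.00035) for Akr1a1, an aldehyde reductase. Rdh10, which makes the retinaldehyde that ALDH1A1 uses, had differences of -0.61 ± 0.08 (adjusted p = 0.0010) and -0.63 ± 0.09 (adjusted p = 0.0013). The gene of catalase, Cat, was lower after CDDO-Me, with differences of -0.73 ± 0.15 (adjusted p = 0.016) in C151S and -0.88 ± 0.16 (adjusted p = 0.0041) in Nrf2-knockout liver. Adh7 was higher in Nrf2-knockout liver after CDDO-Me by 0.75 ± 0.19 (adjusted p = 0.023).

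For scale, 7 of 8 standard NRF2 targets rose with CDDO-Me in wild-type liver and 0 of 8 changed in either mutant by edgeR or DESeq2, with unadjusted edgeR p under 0.05 in 0 in C151S and 1 in Nrf2-knockout. Their median log2 difference was 1.78 in wild-type, -0.02 in C151S, and 0.14 in Nrf2-knockout liver. The response differed between wild-type and C151S in 7 of the 8, and between wild-type and Nrf2-knockout in 6. Cbr3 rose most among them, by 5.24 ± 0.31 (adjusted p = 3.6e-06), and Txnrd1 by 1.11 ± 0.09 (adjusted p = 1.4e-05), so the rise of Aox1 lay near the lower end of the named targets. Gstm1 rose by 2.42 ± 0.16 (adjusted p = 5.1e-06), Srxn1 by 2.19 ± 0.17 (adjusted p = 1.4e-05), and Gclc by 1.37 ± 0.17 (adjusted p = 0.00059).

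The genes whose log2 CPM was most like that of each member over the 30 libraries are given by Pearson's r, a description across libraries of 6 groups that differ from each other. Aox1 was most like Ugt1a6b (r = 0.97), Ephx1 (0.97), and Creg1 (0.96), and Aox3 most like Ces1f (0.92), Ces1e (0.90), and Nox4 (0.86). For Fmo1 they were Abcc2 (0.91), Akr1c19 (0.90), and Cyp2a5 (0.88). For Aldh1a1 they included Snhg11 (0.95) and Mgst1 (0.95), and for Aldh1a7 they were Cyb5b (0.92), Cyp2r1 (0.90), and Rabep1 (0.88). Aldh2 was most like Sugct (0.93), Msra (0.93), and Fahd2a (0.91), and those most like Uox included Upp2 (0.93) and Sult1c2 (0.92).

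Markers of other cells were low throughout and their summed levels overlapped between all groups for macrophages (81.9 to 302 CPM, 6 genes), stellate cells (104 to 388 CPM, 5 genes), and lymphocytes (1.2 to 6.7 CPM, 5 genes). Some single markers were called all the same, and are named after their values were seen. In Nrf2-knockout against wild-type after vehicle, 2 of 5 stellate markers (Des and Col1a1) and 3 of 5 endothelial markers (Pecam1, Stab2, and Lyve1) were higher, with list medians of 0.56 and 0.69 on the log2 scale. After CDDO-Me, 1 of 6 macrophage markers (Marco) was lower than wild-type in both mutants, and 1 endothelial marker (Pecam1) was higher in Nrf2-knockout. Endothelial markers (5 genes) after vehicle were at 144 to 171 CPM in wild-type, 157 to 243 CPM in C151S, and 182 to 285 CPM in Nrf2-knockout liver, where Aox1 and Aox3 were lower. Cholangiocyte markers (4 genes) after vehicle were at 22.7 to 51.0 CPM in wild-type, 15.3 to 25.9 CPM in C151S, and 28.8 to 54.9 CPM in Nrf2-knockout liver, so that the mutants did not overlap in a comparison where Aox1 and Aox3 were called. In C151S against wild-type after vehicle, 1 of the 4 (Spp1) was lower. After CDDO-Me the 4 lay between 17.1 and 49.1 CPM in all groups. Pericentral hepatocyte markers (5 genes, Cyp2e1 and Glul among them) were at 6095 to 9489 CPM in wild-type, 3934 to 12757 CPM in C151S, and 3208 to 9381 CPM in Nrf2-knockout liver. Periportal markers (5 genes) were at 2274 to 3877, 1673 to 3969, and 2516 to 4007 CPM. Against wild-type, 1 of the 5 pericentral markers was lower in Nrf2-knockout after each treatment and in C151S after CDDO-Me. Of the periportal markers, 1 was higher in C151S after each treatment and 3 in Nrf2-knockout after CDDO-Me. In wild-type liver 1 pericentral marker rose with CDDO-Me. Median pericentral sums in wild-type, C151S, and Nrf2-knockout were 8667, 5445, and 4266 CPM after vehicle, and 9357, 6948, and 3490 CPM after CDDO-Me. The summed level of 6 general hepatocyte markers was 94370 to 116997 CPM in wild-type after vehicle and 76249 to 102788 after CDDO-Me, and 67894 to 155930 in the mutants. In C151S against wild-type after CDDO-Me, 1 of these 6 was higher. The part of all these markers in the differences was not tested.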

How the data were processed

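Paired-end reads of 50 bases from stranded mRNA libraries were aligned by the authors to mm10 with STAR 2.7.7, and the counts deposited by the authors are raw numbers of uniquely mapped reads per gene of GENCODE M23 on the matching strand. The 4 summary lines of STAR, 19.4% to 34.1% of each library, were left out. Symbols and coordinates came from GENCODE M21 (GRCm38, the same assembly), which named 55154 of 55335 genes and all 10 members. TPM were computed here from those counts and exonic lengths. Each library held 23667068 to 42073169 counts on genes.

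Groups follow the genotype and treatment labels. The members and the lists of related genes and markers were chosen with earlier results of these data known. For 9 comparisons, the 10 libraries of the 2 groups were filtered (filterByExpr), scaled by TMM, and tested with the quasi-likelihood test of edgeR 4.0.16 (R 4.3.3), with Benjamini-Hochberg adjustment over all genes tested. A gene was called at an adjusted p under 0.05 and a log2 difference of at least 0.5. Differences between responses (3) were tested in 1 fit of all 30 libraries at an adjusted p under 0.05. SE is the log2 difference over the root of F. Log2 CPM used a prior count of 2. The study's own model included the date of isolation, which the labels do not give, so that it was not used here. The code was tested on simulated data.

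Genes named besides the members were those called in at least 1 comparison, at most 6 per list by lowest p, the 3 genes most like each called member (some are not reported here), and Nfe2l2, Keap1, Nqo1, and Arntl. Saa1 was added after its values were seen. Alternatives were DESeq2 1.42.0, other size factors, no filter, 1 fit of all libraries, a replicate block, no size threshold, libraries left out, and the Arntl side, split at the widest gap. The study describes the 5 libraries of a group as biological replicates.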

Additional observations from a re-analysis of the deposited data

Results flagged for a closer look

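In 60 sets of 5 libraries, 1 gene in 1 group each, the library farthest from its group was set against Dixon's 95% critical value for 5 samples, 0.71. Chance gives about 1 in 20 such sets, and 6 of the 60 stood past it. In wild-type CDDO-Me 5, Fmo5 was 1009 CPM against 630 CPM in the nearest other library, and Aldh1a1 was 1843 CPM against 2712. In C151S vehicle 4, Aldh1a1 was 1302 CPM against 700 and Aldh3a2 331 CPM against 219. Aldh2 in wild-type vehicle 3 was 1599 CPM against 1782, and Uox in wild-type CDDO-Me 2 was 1229 CPM against 1460.

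The response of Aox1 to CDDO-Me differed between wild-type and C151S liver by 1.38 on the log2 scale in the test of the difference itself.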

How the results depend on the processing

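Counts below are of the 10 genes. In the fit of all 30 libraries, the calls were 2 instead of 4 for CDDO-Me in wild-type, 1 instead of 3 for C151S against wild-type after vehicle, 6 instead of 3 after CDDO-Me, and 2 instead of 1 for Nrf2-knockout against C151S after CDDO-Me. DESeq2 called 6 instead of 3 for C151S against wild-type and 3 instead of 1 for Nrf2-knockout against C151S, both after CDDO-Me, and 1 instead of 0 for wild-type minus Nrf2-knockout response, where the Arntl side as a covariate also gave 1. Without a filter on low counts, Nrf2-knockout against C151S after CDDO-Me had 2. Without a size threshold there were 7 instead of 4 both for CDDO-Me in wild-type and for Nrf2-knockout against wild-type after vehicle. The cause of these changes was not tested.

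Leaving out C151S CDDO-Me 1 and Nrf2-knockout CDDO-Me 2, chosen after seeing the data, gave 5 instead of 3 for C151S against wild-type after CDDO-Me and 2 instead of 1 for wild-type minus C151S response. Replicate numbers do not pair the libraries: correlations of same-numbered libraries ran from -0.34 to 0.49, and in no comparison was every pair above 0.1. The replicate block gave 1 instead of 2 for Nrf2-knockout against C151S after vehicle. It ended 3 calls: the rise of Aldh1a1 in wild-type (adjusted p = 0.052), Uox in C151S against wild-type after vehicle (0.053), and Aox3 in Nrf2-knockout against C151S after vehicle (0.058). The block and the fit of all 30 libraries each also called Aldh2 in Nrf2-knockout against wild-type after vehicle, and DESeq2 called Aldh1a7 in Nrf2-knockout against C151S after vehicle. Leaving out single libraries gave 1 to 3 for C151S against wild-type after vehicle, 3 to 5 after CDDO-Me, and 0 to 1 for wild-type minus Nrf2-knockout response.

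Signs turned only in differences that were not called. With the Arntl side as a covariate, CDDO-Me in C151S gave -0.0018 for Fmo5 and -0.0016 for Aldh2, CDDO-Me in Nrf2-knockout -0.021 for Aldh1a7 (-0.034 under the replicate block), and C151S minus Nrf2-knockout response -0.033 for Fmo1. With high-Arntl libraries alone, C151S against wild-type after vehicle gave 0.020 for Aox3 and -0.019 for Fmo5, and Nrf2-knockout against wild-type -0.33 for Fmo5 after vehicle and -0.0078 for Uox after CDDO-Me. Without the high-Saa1 libraries, CDDO-Me in C151S gave -0.0068 for Aldh1a1 and 0.070 for Aldh3a2, and Nrf2-knockout against C151S after CDDO-Me 0.024 for Aldh1a7. Leaving out 1 library, ranges that crossed 0 were -0.022 to 0.41 (Aldh1a1) and -0.21 to 0.12 (Aldh3a2) for CDDO-Me in C151S, and -0.024 to 0.15 (Fmo5), -0.063 to 0.15 (Aldh1a7), and -0.23 to 0.028 (Aldh3a2) in Nrf2-knockout. For Nrf2-knockout against C151S they were -0.22 to 0.042 (Aldh3a2) and -0.10 to 0.059 (Uox) after vehicle and -0.33 to 0.010 (Aldh3a2) after CDDO-Me. For differences between responses, only Aox1, Fmo1, Aldh1a1, Aldh1a7, and Uox were followed in this paragraph and its totals. Among these, ranges that crossed 0 were -0.27 to 0.066 for Uox in wild-type minus Nrf2-knockout response and -0.041 to 0.17 for Fmo1 in C151S minus Nrf2-knockout response. Of 1350 single-gene values without 1 library, 1299 kept both sign and call status, and 23 changed sign. The sign stayed but a call was lost in 10 and gained in 18. Of 670 under other settings, 628 kept both and 12 changed sign, with a call lost in 10 and gained in 20. The lowest count of any of the 10 genes in a library was 578.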
